A study of Mus musculus with 8 samples.

Results

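The lysosome genes described here were the 142 genes, of 22063 in the table, whose pathway annotation named the lysosome. That annotation uses no measured value. The pathway itself was selected on the values of this same contrast, since its median log2 fold change between tranilast and control had ranked high among pathways, so its counts and medians below are given as a description only. The libraries came from a study of tranilast, an anti-allergic drug, in mouse fatty liver disease, and were labelled as liver RNA of wild-type mice. The animals were described as male C57BL/6J mice on a high-fat and high-cholesterol diet that received tranilast or its vehicle by mouth each day. The 4 control libraries and the 4 tranilast libraries shared tissue label, genotype and, by the series design, diet, and the labels gave neither dose nor age. Libraries held 12053036 to 15618789 counts.

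Lysosomes are acidic compartments in which hydrolases take apart proteins, glycans, lipids and nucleic acids delivered by endocytosis, phagocytosis and autophagy. A proton pump, the V-ATPase, acidifies the lumen, membrane glycoproteins and transporters line the boundary and export the products, and most new hydrolases are tagged with mannose 6-phosphate and sorted from the Golgi by receptors and clathrin adaptors. In liver, lysosomes clear lipid droplets and lipoprotein cholesterol in hepatocytes and engulfed material in macrophages.

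The tissue label was checked against cell type markers. Of 10 hepatocyte markers, 9 were in the table, 3 of these were at 0 counts in all 8 libraries, and the 9 summed to at most 23 counts in any library, with Ttr the most abundant. Albumin had 0 counts in 6 libraries and at most 2 in the others. Of 14 macrophage markers 8 were tested, and the list made up 0.870 to 0.962% of all counts, led by Lyz2, while Mertk, C1qa, C1qb, C1qc, Marco and Mrc1 were at or near 0 and the 3 Kupffer cell markers were at 0 in every library. These values go against the tissue label, which is therefore in doubt, and the lysosome values below are those of libraries labelled liver. Of the markers of liver endothelial cells, stellate cells and fibroblasts, lymphocytes, neutrophils and cholangiocytes none had enough counts for a test, and of 6 osteoclast markers 4 were tested, with none higher and 2 lower. The macrophage markers summed to 9370.3, 10058, 9544 and 9504 CPM (counts scaled to library size with TMM factors) in control libraries 1 to 4 and to 8958, 8864, 8746 and 8325 CPM in tranilast libraries 1 to 4. Of the 8 tested, 6 (75%) were lower, 1 (Adgre1) was higher and 1 (Tyrobp) was not called, against 28.8% lower and 28.2% higher among all genes. Fcgr1 was the lowest at -1.42, and the part of these marker changes in the lysosome values was not tested. The ratio of the summed markers was 0.907 with TMM factors and 0.983 by library size alone, and their shares of all counts overlapped, at 0.904 to 0.962% in control and 0.870 to 0.929% in tranilast libraries. On FPKM values Csf1r (914 ± 26.8 in control and 919 ± 38.2 in tranilast libraries) and Cd14 (837 ± 26.6 and 865 ± 18.1) turned direction. Tyrobp, at -0.04 with TMM factors, turned as well, at 290 ± 23.7 and 306 ± 5.94 FPKM. In these bulk libraries, fewer cells of a type and less RNA per cell cannot be told apart.

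Enough counts for a test were found for 118 of the 142 members. Of these, 61 were higher with tranilast and 22 lower at a Benjamini-Hochberg adjusted p under 0.05 by the edgeR quasi-likelihood F-test on 10770 genes, and 35 were not called. Among all 10770 genes 57.0% were called, 28.2% higher and 28.8% lower, and because the pathway was selected on this contrast nothing is read from the members' excess. All tranilast libraries lay above all controls for 56 members, including Igf2r, which was not called, and below all controls for 20 members. The groups did not overlap, in either direction, for 49.8% of all genes. Log2 fold changes ran from -0.65 for Ctsc to 1.17 for Hyal1, with a median of 0.15 against 0.01 over all genes tested. None of the members reached an absolute log2 fold change of 1.5, which 1.11% of all genes did at the same adjusted p. The changes were therefore modest, with 16 members called at or above 0.5 and 1 at or below -0.5, and the plot of fold changes by class shows them with their intervals.

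The 24 members without a test were low in both groups. Of these, 17 were at 0 counts in all libraries, a result that allows up to 0.249 CPM in the smallest library for counting error alone: Atp6v0a4, Psapl1, Hyal4, Hyal5, Hyal6, Spam1, Dnase2b, BC051665, Cts3, Cts7, Ctsg, Ctsj, Ctsm, Ctsw, Lamp3, Litafd and Gm49352. The other 7, which were Hyal3, Ctsh, Ctsk, Laptm4b, Ap1m2, Ap3b2 and Gm43064, had at most 4 to 18 counts in any library. Cathepsins K and H, found in osteoclasts and in many macrophages respectively, were thus at or under 9 counts, whereas cathepsins D, B, S, L and Z were abundant.

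**Figure D1:**
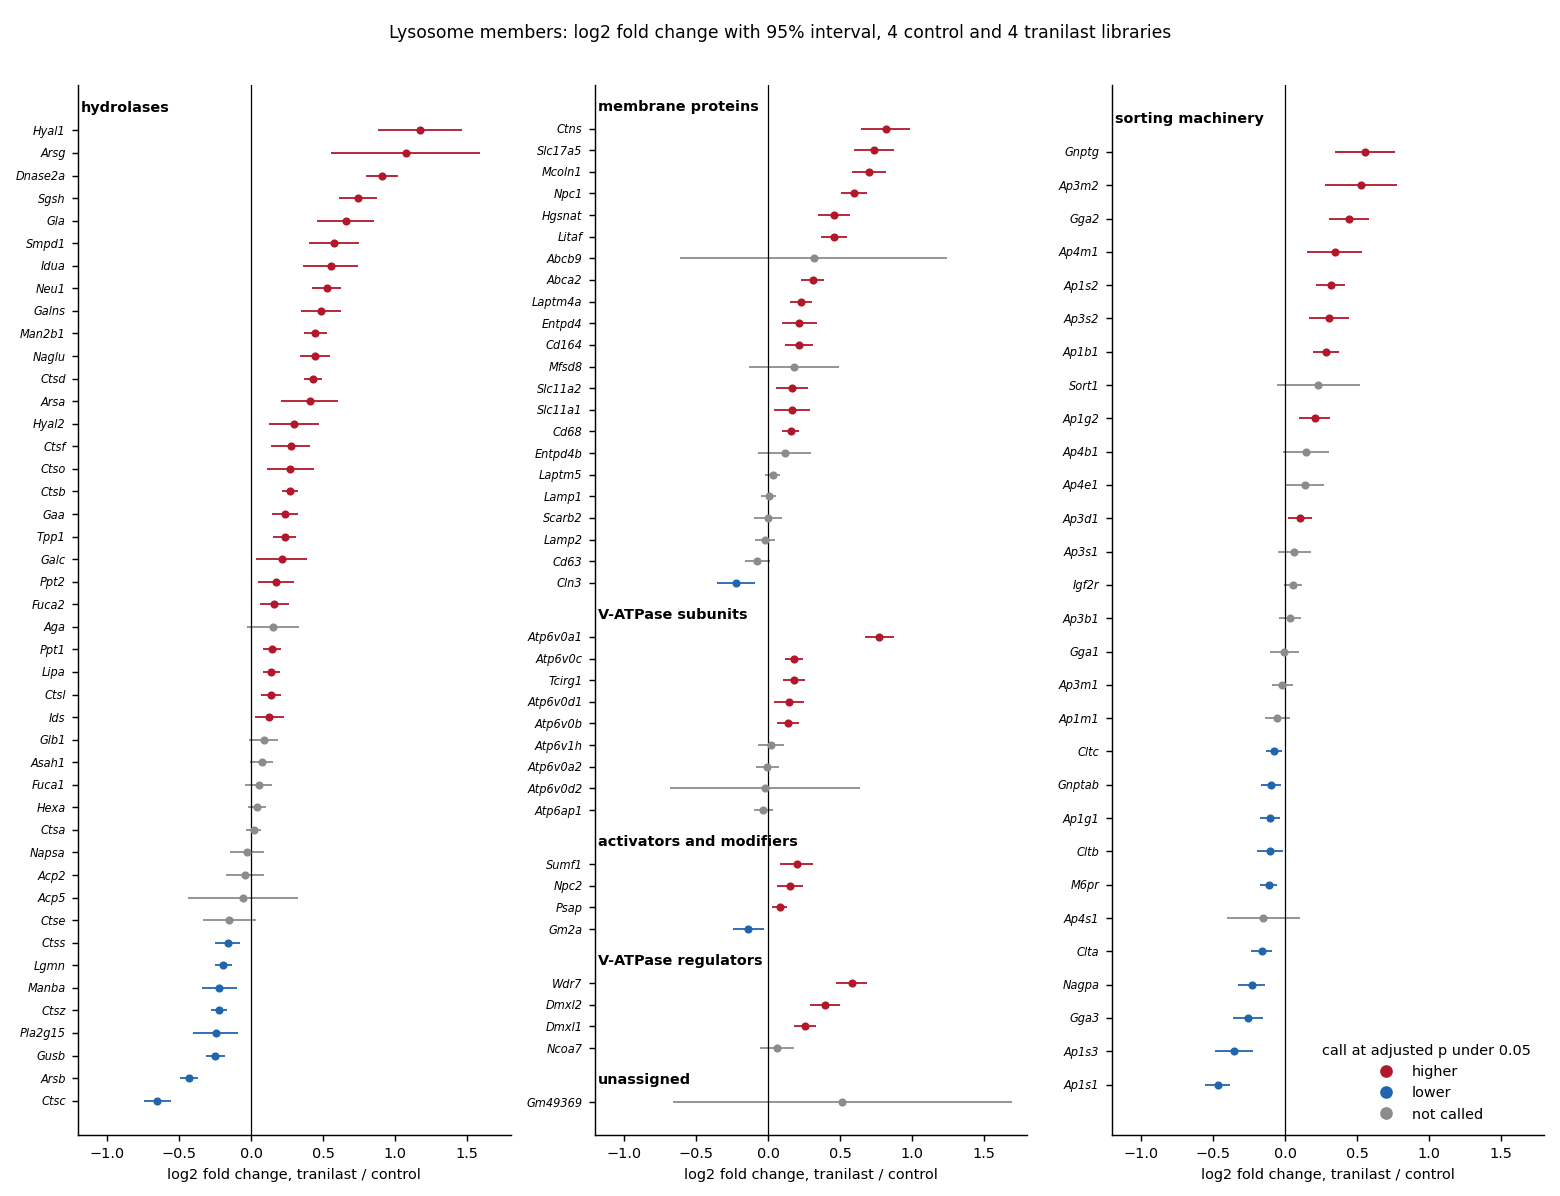
Log2 fold change (tranilast over control, x axis) of 113 of the 118 tested members by class, with 95% intervals from 4 control and 4 tranilast libraries. Red points were called higher (59), blue points lower (20) and grey points not called (34), and of all tested members 56.2% of hydrolases, 59.1% of membrane proteins and 31.0% of sorting machinery were higher, against 28.2% of all genes (sorting machinery had 9 higher and 10 lower, and 16 and 4 with library size alone).

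The scale matters for the lower calls. TMM factors were 0.956 to 0.965 in control libraries and 1.04 in all tranilast libraries to 3 digits, and scaling by library size alone moved the median of all genes from 0.01 to 0.12. The members' median lay 0.14 above that of all genes with either scaling. Higher and lower calls were 74 and 13 with upper-quartile factors, 84 and 10 with library size alone, and 74 and 8 on deposited FPKM values. All genes shifted as well, with 36.0% higher and 21.6% lower with upper-quartile factors, 42.8% and 17.6% with library size alone and 36.8% and 15.4% on FPKM values. Of the 61 higher members 53 were called higher in every one of 18 alternatives and none turned sign, whereas of the 22 lower members 8 were called lower in all of them and 6 turned sign in at least 1 of them. The 8 higher members that lost the call in at least 1 alternative were Atp6v0d1, Galc, Ppt2, Ctsf, Ids, Slc11a2, Slc11a1 and Ap3d1, and the 8 lower members that kept it in all were Ctsc, Arsb, Ap1s1, Ap1s3, Gusb, Ctsz, Lgmn and Gga3. In the plot of class medians, V-ATPase subunits, hydrolases and membrane proteins lie above all genes in each setting.

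**Figure D2:**
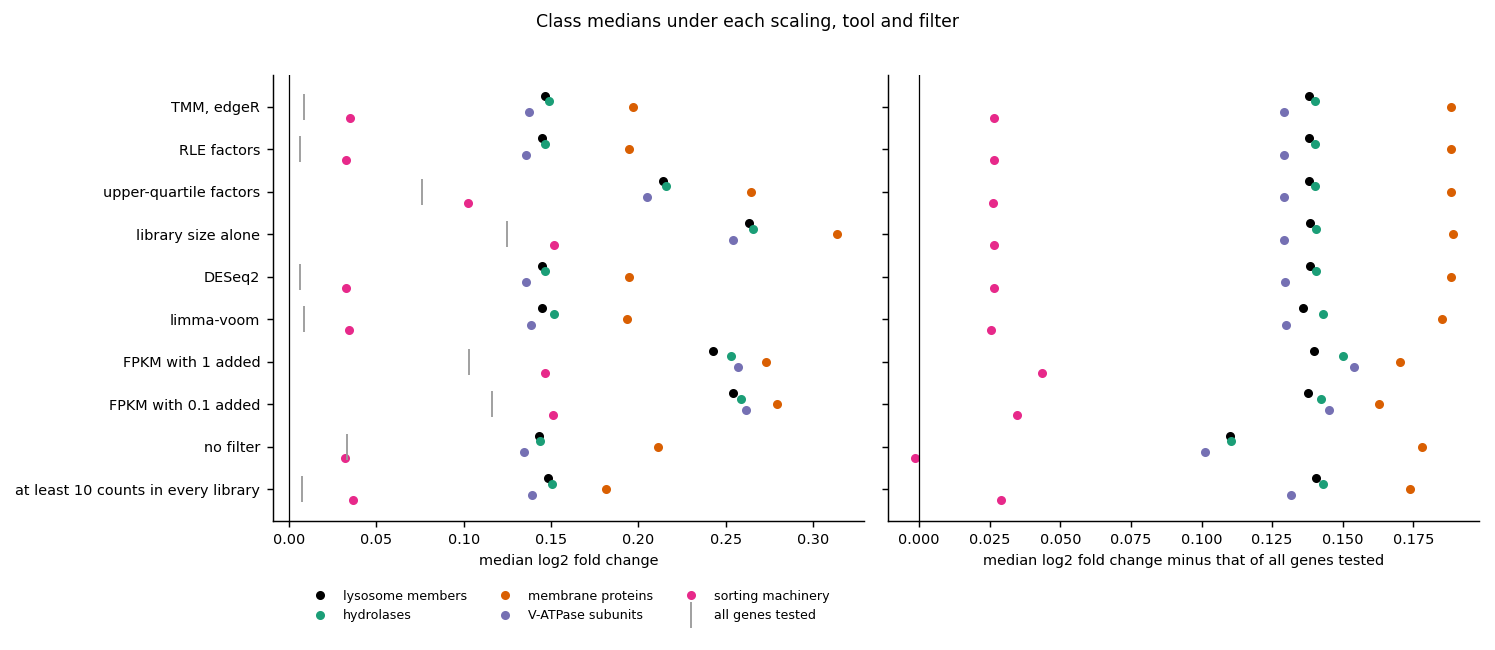
Median log2 fold change of the members and of 4 classes (coloured points) and of all genes tested (grey bars) under each scaling, tool and filter, on its own scale (left) and after subtracting the median of all genes (right). The medians shift with the scaling, and the distances to the median of all genes stay between 0.11 and 0.14 for the members.

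The promoters of lysosomal genes often carry an E-box letter pattern known as the CLEAR motif, which MiT/TFE transcription factors bind. Promoter windows of 300 bases, 250 before to 50 after the annotated start, were found in RefSeq (GRCm38.p6) for 109 of the 142 members and for 92 of the 118 tested. The 26 tested members without an entry included Aga, Ap1m1, Ap3m2, Ap3s1, Asah1, Atp6v0a2, Atp6v0d2, Atp6v1h, Ctsb, Ctse, Dmxl1, Entpd4, Galns, Gm49369, Hgsnat, M6pr, Napsa, Npc1, Slc11a2, Sort1 and Wdr7. CACGTG, which reads the same on both strands, was in 24 of the 92 tested members (26.1%) against 1049 of 8613 tested genes with a window (12.2%). The 7-base form TCACGTG on either strand, which contains it, was in 21 (22.8%) against 7.30%, and the 8-base form TCACGTGA, which contains both, was in 10 (10.9%) against 2.35%. By call, CACGTG was in 16 of 50 higher, 3 of 19 lower and 5 of 23 not called members, against 13.7% of all higher and 12.9% of all lower genes. The median log2 fold change was 0.21 over the 24 tested members with CACGTG and 0.14 over the 68 without, against 0.03 and 0.01 over all tested genes with and without it. A gene with several annotated starts counted as holding a motif if any of its windows did, and the plot of match positions shows where the matches lay. A match is a description of letters and not of a bound site, and it does not say which factor would bind. No form longer than 8 bases was searched.

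The windows below are shown because they hold the 8-base form in members that were higher (Gla, Mcoln1, Gnptg, Ctsd), in 1 that was lower (Cln3) and in 2 that were not called (Igf2r, Ctsa), or the largest number of matches (Lamp1, 4). Each runs 5' to 3' from 20 bases before the first to 20 bases after the last match, stays within the 300-base window and ends at the annotated start at the latest, and carries CACGTG, with a preceding T and a following A where present, in capitals.
Gla, chrX:134601173-134601253, minus strand: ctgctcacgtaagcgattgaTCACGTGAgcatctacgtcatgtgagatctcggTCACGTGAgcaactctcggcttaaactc
Mcoln1, chr8:3500427-3500500, plus strand: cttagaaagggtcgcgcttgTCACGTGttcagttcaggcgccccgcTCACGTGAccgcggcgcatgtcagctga
Gnptg, chr17:25240117-25240158, minus strand: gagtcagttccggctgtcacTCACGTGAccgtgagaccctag
Ctsd, chr7:142387899-142388077, minus strand: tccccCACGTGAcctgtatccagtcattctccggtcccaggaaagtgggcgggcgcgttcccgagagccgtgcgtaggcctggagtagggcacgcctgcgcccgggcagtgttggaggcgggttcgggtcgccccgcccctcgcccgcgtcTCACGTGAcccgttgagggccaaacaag
Cln3, chr7:126583331-126583405, minus strand: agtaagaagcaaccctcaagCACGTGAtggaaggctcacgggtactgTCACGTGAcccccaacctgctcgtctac
Igf2r, chr17:12769707-12769775, minus strand: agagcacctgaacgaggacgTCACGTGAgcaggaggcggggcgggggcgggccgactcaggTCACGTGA
Ctsa, chr2:164833740-164833772, plus strand: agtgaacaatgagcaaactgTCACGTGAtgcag
Lamp1, chr8:13159079-13159160, plus strand: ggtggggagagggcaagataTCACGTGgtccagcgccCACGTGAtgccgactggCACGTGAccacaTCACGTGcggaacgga
These calls depended on the scaling: Cln3 lost its lower call with library size alone and on FPKM values, and Igf2r and Ctsa were called higher with upper-quartile factors, library size alone and FPKM values. Gla held it 2 times, 195 and 228 bases before the start, and Lamp1 held the 7-base form 4 times between 16 and 62 bases before its start. Cd164 and Sumf1, both higher, also held the 8-base form before the start, and in Atp6v0d1 it crossed the start.

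**Figure D3:**
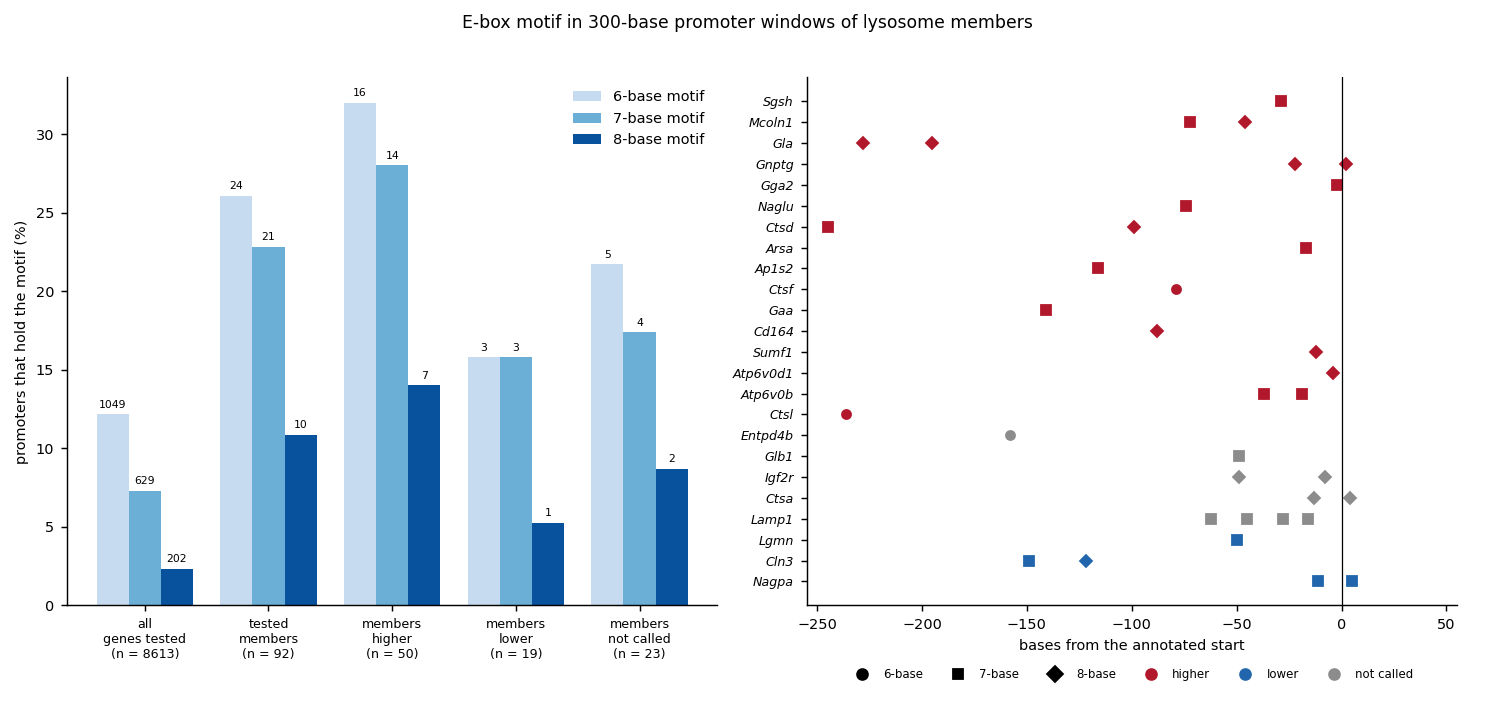
Left, share of promoter windows (%, y axis) that hold the 6-, 7- or 8-base motif among all tested genes with a window (n = 8613) and tested members with a window (n = 92), by call, with the number of genes above each bar. Right, the position of each match relative to the annotated start in 24 members, ordered by log2 fold change, with marker shape for motif length and colour for call.

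Among the hydrolases, 27 of 48 tested were higher and 10 lower, with a median log2 fold change of 0.15 (34 higher and 6 lower with library size alone, 32 and 5 on FPKM values). The glycosidases, which remove sugars from glycans and glycolipids, were 10 higher and 4 lower of 19 tested (52.6% and 21.1%). Among all genes 28.2% were higher and 28.8% lower (42.8% and 17.6% with library size alone, 36.8% and 15.4% on FPKM values). Hyal1, a hyaluronidase, had 5.19, 4.44, 7.02 and 5.999 CPM in control libraries 1 to 4 and 11.1, 12.5, 13.01 and 14.4 CPM in tranilast libraries 1 to 4. Every tranilast library was above every control library. However, exons of Hyal1 overlap those of Naa80 over 1920 bases and those of Hyal3 over 159 bases, both on the same strand. The counts of Hyal1 are therefore uncertain. The log2 fold change was 1.17 ± 0.14 (SE, n = 4 and 4; adjusted p = 1.1e-06, Benjamini-Hochberg, edgeR quasi-likelihood F-test).

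Gla, alpha-galactosidase A, whose promoter window is printed above, had 12.1, 12.8, 15.6 and 12.2 CPM in the control libraries and 20.4, 21.8, 19.5 and 21.2 CPM with tranilast. The groups were apart, with control library 3 nearest to the tranilast values. Its log2 fold change was 0.66 ± 0.09 (adjusted p = 1.0e-05, Benjamini-Hochberg, edgeR quasi-likelihood F-test). Idua, Neu1, Man2b1 and Naglu, which act on dermatan and heparan sulfate, sialic acid, mannose and heparan sulfate, had log2 fold changes of 0.55, 0.52, 0.45 and 0.44, also without overlap between the groups.

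Gusb, beta-glucuronidase, was the glycosidase with the largest fall. It had 375, 382, 365 and 396 CPM in the control libraries and 309.7, 326, 329.8 and 313 CPM with tranilast, with all 4 tranilast libraries below all controls. The log2 fold change was -0.25 ± 0.03 (adjusted p = 2.5e-06, Benjamini-Hochberg, edgeR quasi-likelihood F-test). It stayed called in every alternative but ran from -0.27 to -0.13, and was -0.13 with library size alone. Manba, which cleaves mannose, was at -0.22 and lost its call with library size alone and on FPKM values.

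Sulfatases, which strip sulfate from glycosaminoglycans and sulfatides, were 6 higher and 1 lower of 7 tested, with a median log2 fold change of 0.41. The shares were 85.7% and 14.3%, against 28.2% and 28.8% of all genes. Sgsh, the heparan sulfate sulfamidase, had 28.9, 31.0, 28.9 and 28.4 CPM in the control libraries and 52.9, 45.9, 44.9 and 51.6 CPM with tranilast. All tranilast values lay above all control values, at a log2 fold change of 0.74 ± 0.06 (adjusted p = 1.6e-08, Benjamini-Hochberg, edgeR quasi-likelihood F-test), and its exons overlap those of Card14 on the opposite strand over 955 bases. Arsg, another heparan sulfate sulfatase, rose by 1.07 ± 0.25 from a low level, with 0.995, 1.74, 1.47 and 2.09 CPM in the control libraries and 2.77, 4.12, 3.27 and 3.13 CPM with tranilast. Its log2 fold change ran from 0.50 to 1.24 over the alternatives, with the lowest value on FPKM with 1 added. Galns, Arsa and Ids were at 0.48, 0.41 and 0.12, and Ids lost its call in 7 of the 18 alternatives.

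Arsb, which acts on dermatan and chondroitin sulfate, went the other way. It had 324, 317, 339 and 331 CPM in the control libraries and 243, 242, 244 and 242 CPM with tranilast, a narrow range in which no tranilast library reached a control. Its log2 fold change was -0.43 ± 0.03 (adjusted p = 5.5e-10, Benjamini-Hochberg, edgeR quasi-likelihood F-test) and was called in every alternative. Members that the table also placed in glycosaminoglycan degradation were 9 higher (64.3%) and 3 lower (21.4%) of 14 tested, with a median of 0.32. Those also in other glycan degradation were 3 higher and 3 lower of 10 (30% each), with a median of 0.07. The latter shares lay near those of all genes, 28.2% higher and 28.8% lower.

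Of 13 tested proteases 6 were higher and 4 (30.8%) lower, against 28.2% and 28.8% of all genes, with a median of 0.02. Ctsd, the aspartic protease cathepsin D, had 992, 1032, 977 and 960.4 CPM in the control libraries and 1361, 1402, 1268 and 1299 CPM with tranilast, every tranilast library above every control. The log2 fold change was 0.43 ± 0.03 (adjusted p = 1.1e-09, Benjamini-Hochberg, edgeR quasi-likelihood F-test). The unassigned member Gm49369, whose exons overlap those of Ctsd on the same strand, was not called at 0.52, and its sign turned with limma-voom and on FPKM values with 0.1 added. Ctsb, cathepsin B, had 1655, 1762, 1679 and 1636 CPM in the control libraries and 2041, 2079.7, 1941 and 2048 CPM with tranilast. These values did not overlap and gave a log2 fold change of 0.27 ± 0.03, and Ctsf, Ctso, Tpp1 and Ctsl were at 0.27, 0.27, 0.23 and 0.14, of which Ctsf lost its call on FPKM values.

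Ctsc, cathepsin C or dipeptidyl peptidase 1, which activates granule serine proteases, had the lowest log2 fold change of the tested members. It had 93.0, 94.6, 93.9 and 86.9 CPM in the control libraries and 59.0, 61.2, 57.1 and 57.4 CPM with tranilast, all below the controls. Its log2 fold change was -0.65 ± 0.04 (adjusted p = 6.9e-10, Benjamini-Hochberg, edgeR quasi-likelihood F-test) and ran from -0.68 to -0.53 over the alternatives. Ctsz, Lgmn and Ctss, which include the asparaginyl endopeptidase Lgmn and cathepsin S of antigen processing, were at -0.22, -0.19 and -0.16, and Ctss lost its call with upper-quartile factors, library size alone and FPKM values. Ctsa, the protective protein of beta-galactosidase and neuraminidase, was not called at 0.02 ± 0.02, but was called higher with upper-quartile factors, library size alone and FPKM values.

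Of 6 lipid hydrolases 4 (66.7%) were higher and 1 (16.7%) was lower, against 28.2% and 28.8% of all genes. Smpd1, acid sphingomyelinase, had 18.0, 18.3, 17.5 and 15.98 CPM in the control libraries and 24.6, 27.9, 28.1 and 23.4 CPM with tranilast. The groups did not overlap, and its log2 fold change was 0.57 ± 0.08 (adjusted p = 1.1e-05, Benjamini-Hochberg, edgeR quasi-likelihood F-test). Ppt2, Ppt1 and Lipa, the lysosomal acid lipase that frees cholesterol and fatty acids, were at 0.17, 0.15 and 0.14, and Ppt2 lost its call when control library 2 or either of tranilast libraries 2 and 3 was left out. Pla2g15, a lysosomal phospholipase, was lower at -0.25 ± 0.07 and lost its call with upper-quartile factors, library size alone and FPKM values, and Asah1, acid ceramidase, was not called at 0.07 but was called higher with upper-quartile factors, library size alone and FPKM values.

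Dnase2a, which degrades engulfed DNA, had 52.7, 51.7, 52.3 and 61.1 CPM in the control libraries and 108, 102, 99.7 and 99.4 CPM with tranilast. Control library 4 was above the other controls, yet all tranilast libraries were above it, as the plot of CPM by library shows. The log2 fold change was 0.91 ± 0.05 (adjusted p = 7.1e-11, Benjamini-Hochberg, edgeR quasi-likelihood F-test), with exons that overlap Mast1 on the opposite strand over 1616 bases. The acid phosphatases Acp2 and Acp5 were not called, at -0.04 ± 0.06 and -0.06 ± 0.18.

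**Figure D4:**
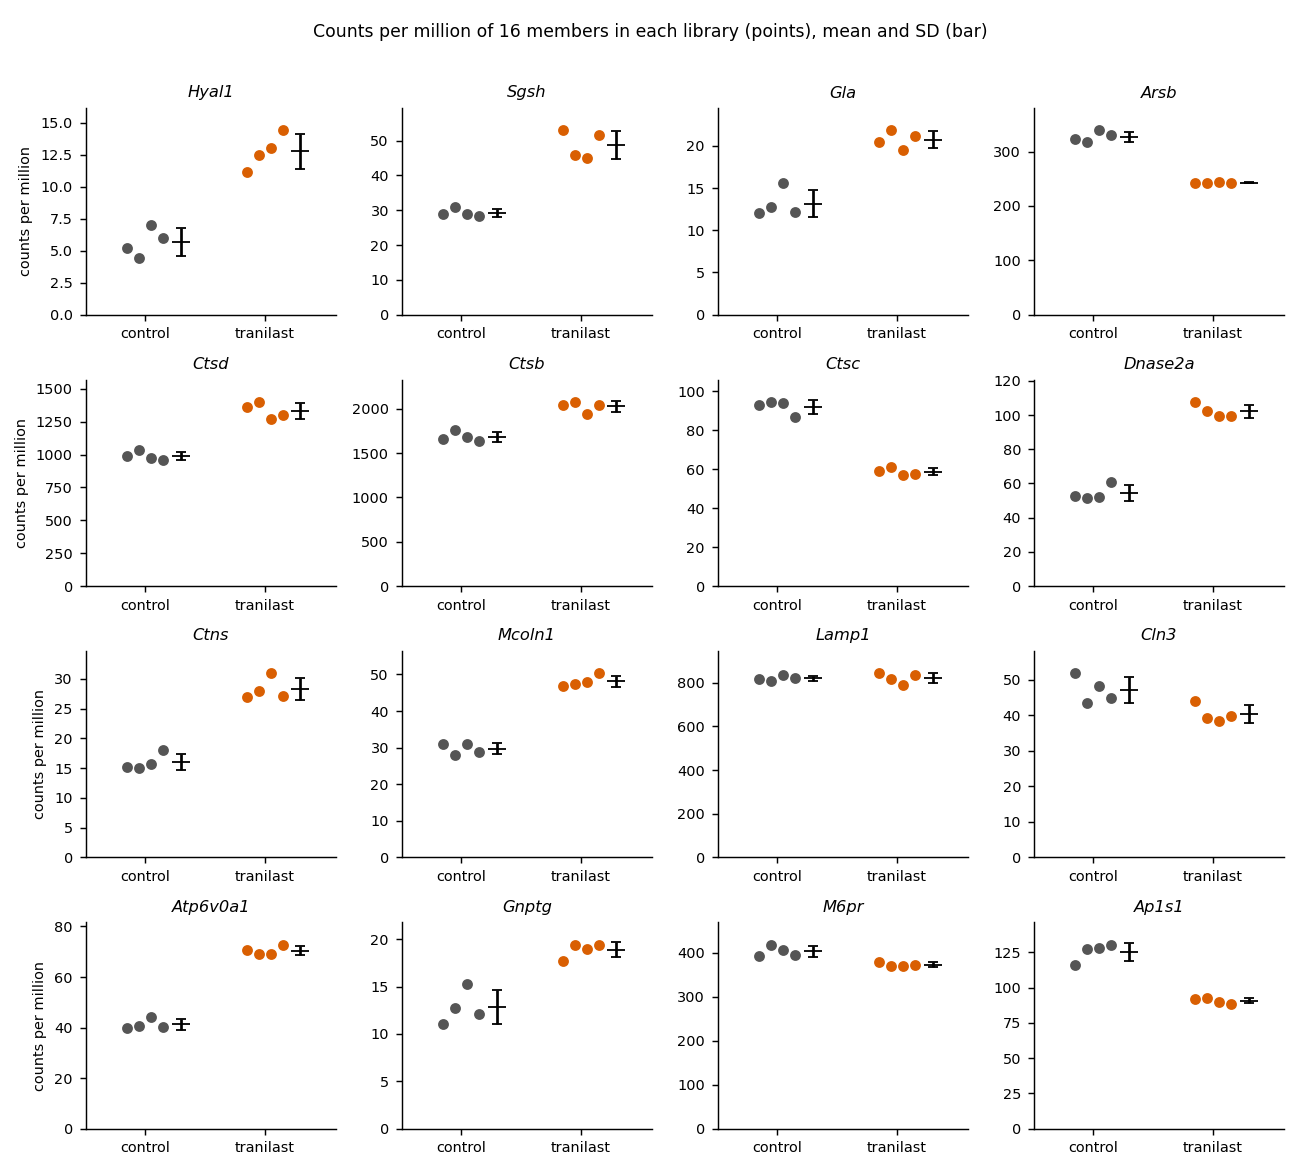
CPM (y axis, from 0) of 16 members in each of the 4 control and 4 tranilast libraries (points), with the mean and SD of each group (bars). Sgsh, Ctsd, Dnase2a and Mcoln1 are higher and Ctsc, Arsb and Ap1s1 lower in every tranilast library than in any control library, and Lamp1 overlaps.

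The activators and modifiers, small proteins that present lipids to hydrolases or mature sulfatases, were 4 higher and 1 lower of 5 tested. These were 80% and 20%, against 28.2% and 28.8% of all genes. Sumf1, which matures all sulfatases, Npc2, which carries cholesterol, and Psap, the saposin precursor, were at 0.20, 0.15 and 0.08. The values of Sumf1 and Npc2 overlapped between the groups. Gm2a, the GM2 activator, was at -0.14 and lost its call in 9 of the 18 alternatives.

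Of 22 tested membrane proteins 13 (59.1%) were higher and 1 (4.5%) was lower, against 28.2% and 28.8% of all genes. Their median log2 fold change was 0.20. The transporters, channels and membrane enzymes, 9 higher and 1 lower of 13 tested, had a median of 0.31 and the structural glycoproteins, 4 higher of 9 tested, a median of 0.03. Ctns, the cystine exporter cystinosin, had 15.2, 15.1, 15.7 and 18.1 CPM in the control libraries and 26.9, 28.0, 31.0 and 27.2 CPM with tranilast. No tranilast library was within the control range, and the log2 fold change was 0.82 ± 0.08 (adjusted p = 1.0e-07, Benjamini-Hochberg, edgeR quasi-likelihood F-test).

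Mcoln1, the calcium release channel of the lysosome, had 31.0, 28.0, 30.9 and 28.7 CPM in the control libraries and 46.8, 47.5, 47.9 and 50.3 CPM with tranilast, at a log2 fold change of 0.70 ± 0.06. Slc17a5, the sialic acid exporter, had 32.1, 30.8, 26.2 and 30.0 CPM in the control libraries and 50.5, 51.4, 51.1 and 45.5 CPM with tranilast, at 0.74 ± 0.07. Npc1, which hands cholesterol out of the lysosome, had 68.5, 69.997, 69.2 and 71.2 CPM in the control libraries and 113, 106, 101 and 102 CPM with tranilast, at 0.59 ± 0.04. All 3 had every tranilast library above every control. Hgsnat, which acetylates heparan sulfate ends, and Litaf, a late endosomal membrane protein, were both at 0.46.

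Cln3, a late endosomal and lysosomal membrane protein, was the member of its class called lower. Its values were 51.8, 43.5, 48.2 and 44.9 CPM in the control libraries and 43.9, 39.3, 38.4 and 39.9 CPM with tranilast, so the groups touched at 1 tranilast library. At a log2 fold change of -0.22 ± 0.06 it lost its call with library size alone and FPKM values. Its promoter window held both the 8-base and the 7-base form, as printed above.

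Of the 9 tested structural glycoproteins, 5 were not called with TMM factors, Lamp1 among them. Lamp1 had 816, 806, 837 and 823 CPM in the control libraries and 844, 819.9, 790.2 and 838 CPM with tranilast, with a log2 fold change between -0.05 and 0.06 (95% interval). The control and tranilast values of Lamp1 overlapped, but with library size alone it was called higher at 0.12, as it was with upper-quartile factors and FPKM values. Lamp2, Scarb2 and Laptm5 were at -0.02, 0.00 and 0.03. With library size alone they were called higher at 0.09, 0.12 and 0.15, and Laptm5 also with upper-quartile factors and FPKM values. Cd68, a macrophage-rich membrane glycoprotein, was higher at 0.16 ± 0.03, and Laptm4a and Cd164 were higher at 0.23 and 0.21.

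Of 9 tested V-ATPase subunits 5 (55.6%) were higher and none lower, against 28.2% and 28.8% of all genes, with a median of 0.14. With library size alone 8 were higher, as were 42.8% of all genes. The median lay 0.13 above that of all genes with either scaling. Atp6v0a1, a membrane subunit of the pump, had 40.0, 40.5, 44.4 and 40.3 CPM in the control libraries and 70.8, 69.2, 69.1 and 72.8 CPM with tranilast. Every tranilast library stood apart from the controls, and the log2 fold change was 0.77 ± 0.05 (adjusted p = 2.4e-10, Benjamini-Hochberg, edgeR quasi-likelihood F-test). Of its paralogs, Tcirg1, the a3 subunit, was higher at 0.18 ± 0.04, and Atp6v0a2 was not called at -0.01 ± 0.04. Atp6v0c, Atp6v0d1 and Atp6v0b were at 0.18, 0.15 and 0.14, and Atp6ap1 and Atp6v1h were not called at -0.03 and 0.02. Without control replicate 1 or tranilast replicate 1, Atp6v0d1 lost its call and 4 subunits remained called.

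The other subunits of the pump, mostly of its cytosolic V1 sector, were 4 higher and none lower of 11 tested among 15 listed. Among all genes 28.2% were higher and 28.8% lower. Atp6v1d and Atp6v1a were at 0.55 and 0.38, and 10 of the 11 were called higher with library size alone or on FPKM values, where 42.8% and 36.8% of all genes were, while the list's median lay 0.11 above that of all genes with TMM factors and with library size alone. Of the 4 regulators of pump assembly in the pathway, Wdr7, Dmxl2 and Dmxl1 were higher at 0.58, 0.40 and 0.26, and Ncoa7 was not called at 0.06 ± 0.06. Wdr7 had 36.0, 37.2, 35.9 and 36.3 CPM in the control libraries and 57.6, 52.9, 52.4 and 54.4 CPM with tranilast. Its values did not overlap, and those of Dmxl2 and Dmxl1 did not either.

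Of 29 tested members of the sorting machinery 9 (31.0%) were higher, 10 (34.5%) lower and 10 not called, with a median of 0.03. Both shares lay near those of all genes, 28.2% higher and 28.8% lower. The split depended on the scaling. It was 13 and 5 with upper-quartile factors, 16 and 4 with library size alone and 14 and 3 on FPKM values. All genes moved as well, to 36.0% and 21.6%, 42.8% and 17.6%, and 36.8% and 15.4% in the same settings. Without tranilast replicate 4, 6 members were lower. Gnptg, the regulatory subunit of the enzyme that starts the mannose 6-phosphate tag, had 11.1, 12.8, 15.3 and 12.1 CPM in the control libraries and 17.7, 19.4, 18.9 and 19.4 CPM with tranilast. The log2 fold change was 0.56 ± 0.10, while Gnptab, the catalytic subunit precursor, and Nagpa, which completes the tag, were at -0.10 ± 0.03 and -0.23 ± 0.04. Gnptab turned sign with library size alone and FPKM values, and Nagpa lost its call on FPKM values.

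Of the receptors that carry tagged hydrolases, M6pr had 392, 418, 406 and 394 CPM in the control libraries and 379.8, 369, 369 and 372 CPM with tranilast. The groups did not overlap, and its log2 fold change of -0.11 ± 0.03 turned to 0.00502 with library size alone and on FPKM values. Igf2r, the larger receptor, was not called at 0.06 ± 0.03 although its groups did not overlap, and was called higher at 0.17 with library size alone, and Sort1 was not called at 0.23 ± 0.14.

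AP-1 and GGA adaptors had members called in both directions. Ap1s1, the small sigma subunit of the AP-1 clathrin adaptor, had 116, 127, 128 and 131 CPM in the control libraries and 92.1, 92.6, 89.6 and 88.6 CPM with tranilast. All tranilast values were below the controls, at a log2 fold change of -0.47 ± 0.04 (adjusted p = 3.0e-08, Benjamini-Hochberg, edgeR quasi-likelihood F-test). The paralog Ap1s3 was at -0.35 ± 0.06 and Ap1s2 at 0.32 ± 0.05, both with groups that did not overlap. Among the GGA adaptors Gga2 was at 0.44 ± 0.07, Gga3 at -0.26 ± 0.05 and Gga1 was not called at -0.01 ± 0.05. The called AP-3 subunits, Ap3m2, Ap3s2 and Ap3d1, were higher at 0.53, 0.31 and 0.10. The clathrin chains Clta, Cltb and Cltc were at -0.16, -0.11 and -0.08, and Cltb and Cltc turned sign with library size alone and FPKM values. Cltb kept its call in 3 of the 18 alternatives and Cltc in 11, and Clta lost its call with library size alone and on FPKM values.

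Levels were compared between genes per length, as deposited FPKM values. Ctsd was the most abundant member, at 447 ± 12.9 FPKM in the control libraries and 652 ± 29.6 FPKM with tranilast (mean ± SD, n = 4). Laptm5, Cd68, Ctsa and Lamp1 followed in the control libraries at 437 ± 19.9, 433 ± 16.8, 385 ± 14.3 and 354 ± 5.74 FPKM. In the control libraries the distances of Laptm5 and Cd68 from Ctsd were within the spread between libraries. Hyal1 and Arsg, with the largest fold changes, were at 1.96 ± 0.307 and 0.468 ± 0.137 FPKM in the control libraries, so that these relative changes were among scarce members, as the plot of level against change shows.

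**Figure D5:**
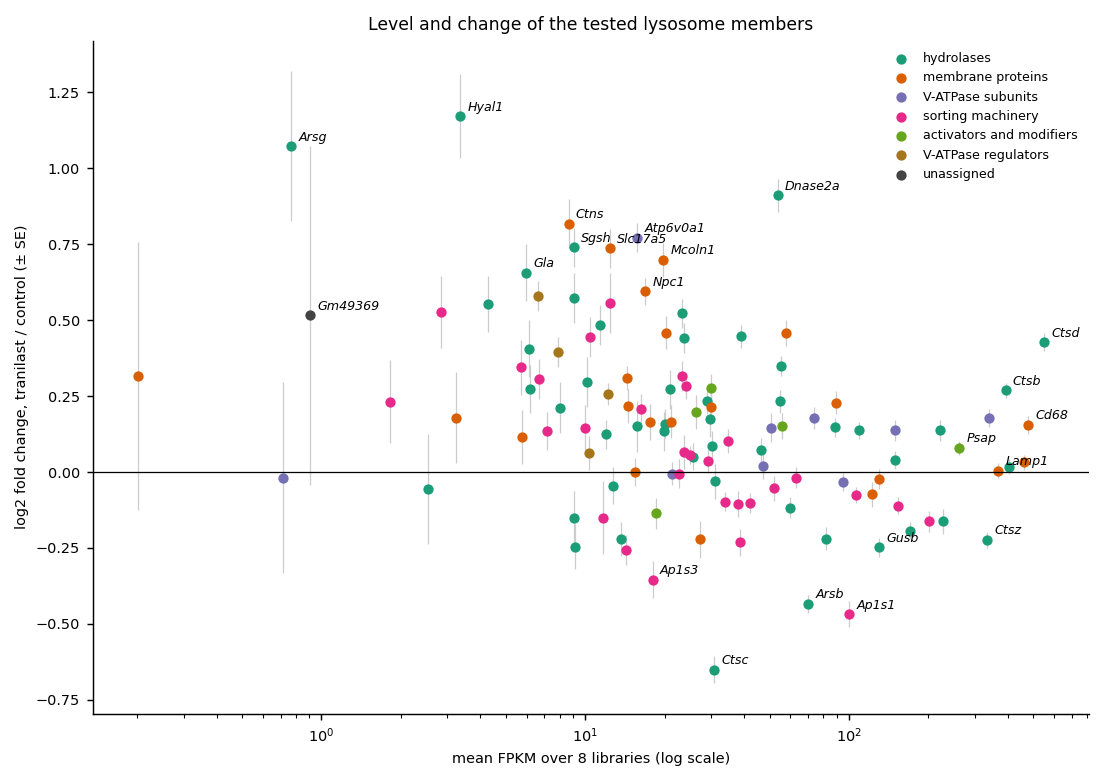
Mean FPKM over 8 libraries (x axis, log scale) against log2 fold change (y axis, points with SE) for the 118 tested members, coloured by class. The largest changes, Hyal1 and Arsg, are at low FPKM, and Ctsd combines the highest FPKM with a log2 fold change of 0.43.

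In sum over the 142 members, counts made up 1.72 to 1.74% of all counts in control libraries and 1.96 to 2.04% in tranilast libraries. After TMM scaling the members summed to 17874, 18214, 18079 and 17918 CPM in control libraries 1 to 4 and to 19383, 19494, 18888 and 19131 CPM with tranilast, a ratio of means of 1.07 (1.16 by library size alone). Hydrolases, membrane proteins and V-ATPase subunits had ratios of 1.09, 1.08 and 1.10. Sorting machinery was at 0.972 after TMM scaling and at 1.05 by library size alone, a change of direction.

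Of 34 lysosomal proteins outside the pathway, 33 were in the table and 31 were tested, with 20 higher and 4 lower, against 28.2% and 28.8% of all genes, and a median of 0.31, which lay 0.30 above that of all genes with TMM factors and 0.20 above it on FPKM values with 1 added. Slc38a7, the glutamine exporter, was highest, with 23.5, 24.1, 22.5 and 22.9 CPM in the control libraries and 40.9, 44.2, 43.5 and 43.4 CPM with tranilast and a log2 fold change of 0.89 ± 0.06. Tpcn1, a cation channel, was lowest at -0.52 ± 0.04, and Grn, the progranulin gene, was at 0.31 ± 0.02. The summed CPM of this list had a ratio of means of 1.01 after TMM scaling and 1.10 by library size alone. Lyz2, the gene of the list with the most counts, was lower at -0.13 ± 0.03. The lists of the pathway and of these lysosomal proteins do not share genes, but both were measured in the same libraries. The list outside the pathway was also chosen with earlier results of these data known, so its values are a description and not independent evidence. Of the MiT/TFE factors, which bind the CLEAR motif, 3 were tested: Tfeb and Tfe3 were lower at -0.27 ± 0.08 and -0.32 ± 0.04, and Mitf was higher at 0.16 ± 0.05. On FPKM values Tfe3 and Mitf lost their calls. Tfec had too few counts for a test.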

How the data were processed

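The values were gene-level estimated counts and FPKM that the authors deposited for 8 libraries. Per the study's methods, poly-A RNA was sequenced in paired ends, on an instrument that the labels and the methods name differently. Aligner, counter, strand setting and genome build were not given in the sources used here. Deposited estimated counts were rounded. Genes were filtered by filterByExpr and fitted with edgeR 4.0.16 (R 4.3.3), glmQLFit and glmQLFTest, TMM factors, no covariates, over 10770 genes, with p-values adjusted (Benjamini-Hochberg) and calls at 0.05. Alternatives used RLE, upper-quartile or no factors, DESeq2 1.42.0, limma 3.58.1 (voom, and trend on log2 of deposited FPKM plus 1 or 0.1), other filters, the replicate number as a block and each library left out. The fit was checked on simulated counts of 10770 genes, of which 200 were changed by a log2 fold change of 2 in either direction. Smaller changes, and changes in as large a share of genes as was called here, were not simulated. Nothing in the labels says whether the libraries came from separate animals, so p-values measure the spread between these libraries. The biological coefficient of variation was 5.09%.

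Members and lists were chosen with earlier results of these data known. Classes follow known functions, and 15 members were placed once the table was at hand, 3 of them as unassigned. Genes were named by a rule: the 3 highest and 3 lowest called and the 2 with the highest FPKM of each class, the 2 largest changes of each subclass, the highest and lowest called of 3 lists, members called at an absolute log2 fold change of 1.5, and defining cell type markers. Other genes named were chosen after their values were seen. Exons of 37 members (30 tested) overlap those of another gene in GENCODE M21, so their counts are uncertain, among them Hyal1, Sgsh, Dnase2a, Ctsd, Ctsb, Npc1, Idua, Gnptg, Wdr7 and Gm49369. The 95% intervals of fold changes come from the fit and include the spread between libraries, and the floors for 0 counts cover counting error only.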

Additional observations from a re-analysis of the deposited data

Results flagged for a closer look

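Each group of 4 libraries was checked for a library that stood apart from the others, for the named genes and the class sums, in 108 groups. Such a gap turns up by chance in about 5% of groups, and 4 were found. Atp6v0a1 stood at 44.4 CPM in control replicate 3 against 40.0 to 40.5 CPM in the other controls. Dnase2a stood at 61.1 CPM in control replicate 4 against 51.7 to 52.7 CPM. Slc17a5 stood at 45.5 CPM in tranilast replicate 4 against 50.5 to 51.4 CPM. Gm49369, which overlaps exons of Ctsd on the same strand, had 0 counts in tranilast replicate 3 against 1.01 to 1.21 CPM. In the first 3 genes the tranilast libraries remained above all controls.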

How the results depend on the processing

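Of the 61 higher members 53 were called higher under each of 18 other settings, 54 under each one that left out a library, and 0 turned sign. Of the 22 lower members 8 were called lower under all 18, 17 under each one that left out a library, and 6 turned sign with library size alone or on FPKM values, among them Cltc, Ap1g1, Cltb, Gnptab and M6pr. The cause was not tested. Of the 35 members not called 15 turned sign in at least 1 alternative. Over the 49 genes of the naming rule, 835 values kept direction and side of the threshold, 24 (7 genes) lost the call, 11 (4 genes) gained it and 11 (3 genes) turned sign.

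With upper-quartile factors, library size alone, FPKM with 1 added and FPKM with 0.1 added, the median log2 fold changes were 0.21, 0.26, 0.24 and 0.25 for the members, 0.22, 0.27, 0.25 and 0.26 for hydrolases, 0.26, 0.31, 0.27 and 0.28 for membrane proteins, 0.21, 0.25, 0.26 and 0.26 for V-ATPase subunits, 0.10, 0.15, 0.15 and 0.15 for sorting machinery, and 0.19, 0.24, 0.23 and 0.24 for the V-ATPase subunits outside the pathway. The lysosomal proteins outside the pathway were at 0.38, 0.43, 0.30 and 0.39 in the same order. Their distance to the median of all genes fell from 0.30 with TMM factors to 0.20 with FPKM plus 1. In the same setting the distance went from 0.03 to 0.04 for sorting machinery and from 0.13 to 0.15 for V-ATPase subunits, and with FPKM plus 0.1 from 0.19 to 0.16 for membrane proteins, while it was 0.14 for the members in all of these settings.

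The lower members numbered 13, 10, 8 and 8 in the same order. All genes were 36.0%, 42.8%, 36.8% and 36.8% higher and 21.6%, 17.6%, 15.4% and 15.4% lower in these settings. Lower hydrolases numbered 6 with library size alone and 5 and 5 on FPKM values. Lower membrane proteins numbered 0 with library size alone and on FPKM values. Higher V-ATPase subunits numbered 8 with library size alone. Sorting machinery was 16 higher with library size alone and 14 on FPKM values, and 5, 4, 3 and 3 lower in the same order. The V-ATPase subunits outside the pathway were 8, 10, 10 and 10 higher, and the lysosomal proteins outside the pathway 2 lower on FPKM values.

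Leaving out each library in turn gave medians of 0.13 to 0.16 for the members, 0.16 to 0.22 for membrane proteins, 0.12 to 0.15 for V-ATPase subunits, 0.0180 to 0.0504 for sorting machinery, 0.0836 to 0.155 for the V-ATPase subunits outside the pathway and 0.25 to 0.30 for the lysosomal proteins outside it, and 6 to 10 lower members of sorting machinery. With trends on GC content and gene length removed, an alternative chosen after seeing the data, medians were 0.13 for the members, 0.0188 for sorting machinery and 0.30 for the lysosomal proteins outside the pathway. All 118 tested members had a GC and a length value.

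The Acp5 log2 fold change turned sign with upper-quartile factors (0.0101), library size alone (0.0593), FPKM with 1 added (0.0352) and with 0.1 added (0.0482), and without control replicate 1 (0.0153) or tranilast replicate 4 (0.000123), and ran from -0.122 to 0.0153 with each library left out. The Gm49369 log2 fold change turned sign with limma-voom (-0.17) and FPKM with 0.1 added (-0.0217), and the M6pr log2 fold change with library size alone (0.00502) and on FPKM with 1 added (0.00502) and 0.1 added (0.00505). None of the 3 causes was tested.

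The deviations from the group mean correlated at -0.056, -0.044, 0.0076 and 0.107 between control and tranilast libraries 1 to 4 of the same number, across genes, which are not independent replicates. The numbers therefore show no pairing of samples, and a block on them gave 61 higher and 21 lower members. Counts of up to 18 in the smallest members limit what this depth shows of them.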
